A study of Mus musculus with 50 samples.

Results

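The voltage-gated and potassium channel genes were followed across 50 Affymetrix oligonucleotide arrays of mouse brain, 25 of hippocampus and 25 of neocortex. A gene was a member when the single symbol of its probe set in the platform annotation began with Kcn, Cacn, Hcn or Clcn, or with Scn, a digit and the letter a. This rule found 68 genes with 88 probe sets among 8251 genes with 1 symbol on the array, and where a gene had several probe sets, the one with the highest mean log2 level over the 50 arrays stood for it. In 49 of the 68 genes that probe set passed the filter on low signals, and 19 genes did not. The arrays came from 10 S1P2-KO, 5 S1P3-KO and 10 WT mice for each tissue, all 8 weeks old. S1P2 and S1P3 are receptors for the signalling lipid sphingosine 1-phosphate, encoded by S1pr2 and S1pr3. The labels describe S1P2-KO mice as having sporadic seizures from 4 to 7 weeks of age and S1P3-KO mice as having none, so the S1P2-KO tissue was taken after that window. The S1P2-KO and WT groups held 5 males and 5 females each, the S1P3-KO group 2 males and 3 females. The design text names S1P2-deficient mice in place of S1P3-deficient ones and lists the group sizes in another order, and the sample titles were followed. The targeted alleles and the strain background are not given in the sources used here.

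Ion channels are membrane proteins that let selected ions through when they open, and the mix of channels sets how readily a neuron fires. Voltage-gated sodium and calcium channels (Scn and Cacna genes) pass depolarising current, while potassium channels (Kcn genes) bring the membrane back to rest or hold it there. Hcn channels open on hyperpolarisation and help set rhythm, and Clcn genes encode chloride channels of the surface membrane and chloride-proton exchangers of endosomes and lysosomes. Loss of several of these genes, among them Kcna1, Cacna1a and Scn1a, causes seizures in mice.

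Promoters are shown for 4 of the 7 members whose signal differed by test between hippocampus and neocortex in all 3 genotypes, as described next. Each line gives the 250 bases before the annotated RefSeq start in build GRCm38.p6, read 5′ to 3′ on the strand of the gene. Capitals mark the GC box (GGGCGG), the TATA box (TATAAA) and the E-box (CAGCTG), searched on both strands. Kcnh1, Kcnj9 and Kcnk4 were lower in hippocampus and Kcnd2 was higher.
Kcnh1, chr1:192190527-192190776 (+ strand): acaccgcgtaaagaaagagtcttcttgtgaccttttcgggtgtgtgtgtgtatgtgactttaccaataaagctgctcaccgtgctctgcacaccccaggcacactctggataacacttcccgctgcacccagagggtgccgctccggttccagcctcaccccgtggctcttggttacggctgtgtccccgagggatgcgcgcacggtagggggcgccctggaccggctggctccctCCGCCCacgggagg
Kcnj9, chr1:172329323-172329572 (- strand): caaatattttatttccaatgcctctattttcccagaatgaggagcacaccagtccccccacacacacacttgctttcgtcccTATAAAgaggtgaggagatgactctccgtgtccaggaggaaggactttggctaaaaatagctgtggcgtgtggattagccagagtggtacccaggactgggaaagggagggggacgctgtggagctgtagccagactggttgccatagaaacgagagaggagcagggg
Kcnk4, chr19:6934516-6934765 (- strand): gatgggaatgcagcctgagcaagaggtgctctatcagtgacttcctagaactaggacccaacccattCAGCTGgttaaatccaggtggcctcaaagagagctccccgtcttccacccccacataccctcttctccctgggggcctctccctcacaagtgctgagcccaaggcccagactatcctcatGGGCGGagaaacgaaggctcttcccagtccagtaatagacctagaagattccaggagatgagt
Kcnd2, chr6:21215096-21215345 (+ strand): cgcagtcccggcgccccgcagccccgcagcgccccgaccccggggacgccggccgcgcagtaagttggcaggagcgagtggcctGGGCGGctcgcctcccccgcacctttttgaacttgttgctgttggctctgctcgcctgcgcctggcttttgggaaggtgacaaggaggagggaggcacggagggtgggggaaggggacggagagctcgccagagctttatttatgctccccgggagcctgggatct
Kcnj9 held the TATA box and no GC box, whereas Kcnh1, Kcnk4 and Kcnd2 each held 1 GC box (in Kcnh1 on the opposite strand) and Kcnk4 an E-box as well. RefSeq promoters were found for 53 of the 68 genes, 70 promoters in all. Among these, the GC box occurred in 45.71% (32.74% of all 32851 promoters), the TATA box in 4.29% (12.37%) and the E-box in 28.57% (13.0%). The other motifs searched were the CRE (TGACGTCA) in 1.43% (1.55%), its core (TGACG) in 21.43% (17.77%), the CCAAT box (CCAAT) in 18.57% (33.85%), and the left (CAGCACC) and right (GGACAG) cores of the neuron-restrictive element in 7.14% (5.73%) and 18.57% (18.67%). The CRE contains its core, so their counts overlap. Promoters of members had a median GC content of 58.8%, against 52.4% over all promoters. These shares describe letters in the sequence and not binding.

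Signals are MAS5 intensities on a linear scale, and differences are given as log2(signal + 30.7), hippocampus minus neocortex or knockout minus WT, with a 95% interval. The trimmed mean signal of the arrays lay between 1000.56 and 1000.66. S1pr2 was not lower by test in either tissue of the S1P2-KO mice (347.7 to 824.7 in S1P2-KO neocortex, 425.6 to 875.8 in WT neocortex), and the position of its probes relative to the deletion is not given here, so groups are named as labelled. S1pr3 ran from 451.4 to 551.9 in S1P3-KO hippocampus, against 470.3 to 1129.1 in WT hippocampus, and that difference did not pass the adjusted test (limma, adjusted p = 0.164). In neocortex S1pr3 ran from 500.6 to 1122.2 in S1P3-KO and from 629.2 to 1077.4 in WT arrays, with S1P3-KO replicate 2 above every WT array (-0.26, adjusted p = 0.638). RNA integrity was read from control probes at the 3′ and 5′ ends of Gapdh and β-actin, whose log2 ratio rises in degraded RNA. This integrity ratio exceeded 1 on 3 arrays only, all of hippocampus, at 1.37 in S1P2-KO replicate 7, 4.46 in S1P3-KO replicate 5 and 1.20 in WT replicate 4. Titles call the replicates biological, without naming animals.

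Channel genes tended to be lower in hippocampus than in neocortex, and single members passed the adjusted test only between tissues. The tendency of the whole set was not tested. In S1P2-KO mice 16 of 49 members were called at an adjusted p under 0.05, 13 lower and 3 higher in hippocampus (limma with Benjamini-Hochberg adjustment over 8534 probe sets). Of all probe sets tested, 14.7% were called in that comparison, 7.09% lower and 7.62% higher. In S1P3-KO mice 19 members were called, 17 lower and 2 higher (12% of all probe sets called, 6% lower and 5.99% higher). In WT mice 18 members were called, 14 lower and 4 higher (14.6% of all probe sets called, 6.74% lower and 7.83% higher). These counts average the sexes, a coding adopted after a first one had been run. With the contrasts set at males, the first coding, the counts were 13, 11 and 11 in S1P2-KO, S1P3-KO and WT mice. Set at females, they were 9, 18 and 14. All arrays of both sexes stayed in these fits, and the genotypes shared a sex term for each tissue. The median member difference was -0.23 in S1P2-KO, -0.43 in S1P3-KO and -0.24 in WT mice, against 0.02, -0.00 and 0.01 over all probe sets tested. In all 3 genotypes 31 members (63.27%) had a negative difference and 9 a positive one, while 28.28% of all probe sets were negative in all 3. In S1P3-KO mice the count was 11 without hippocampus replicate 5 and 7 in a fit of that genotype alone.

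**Figure D1:**
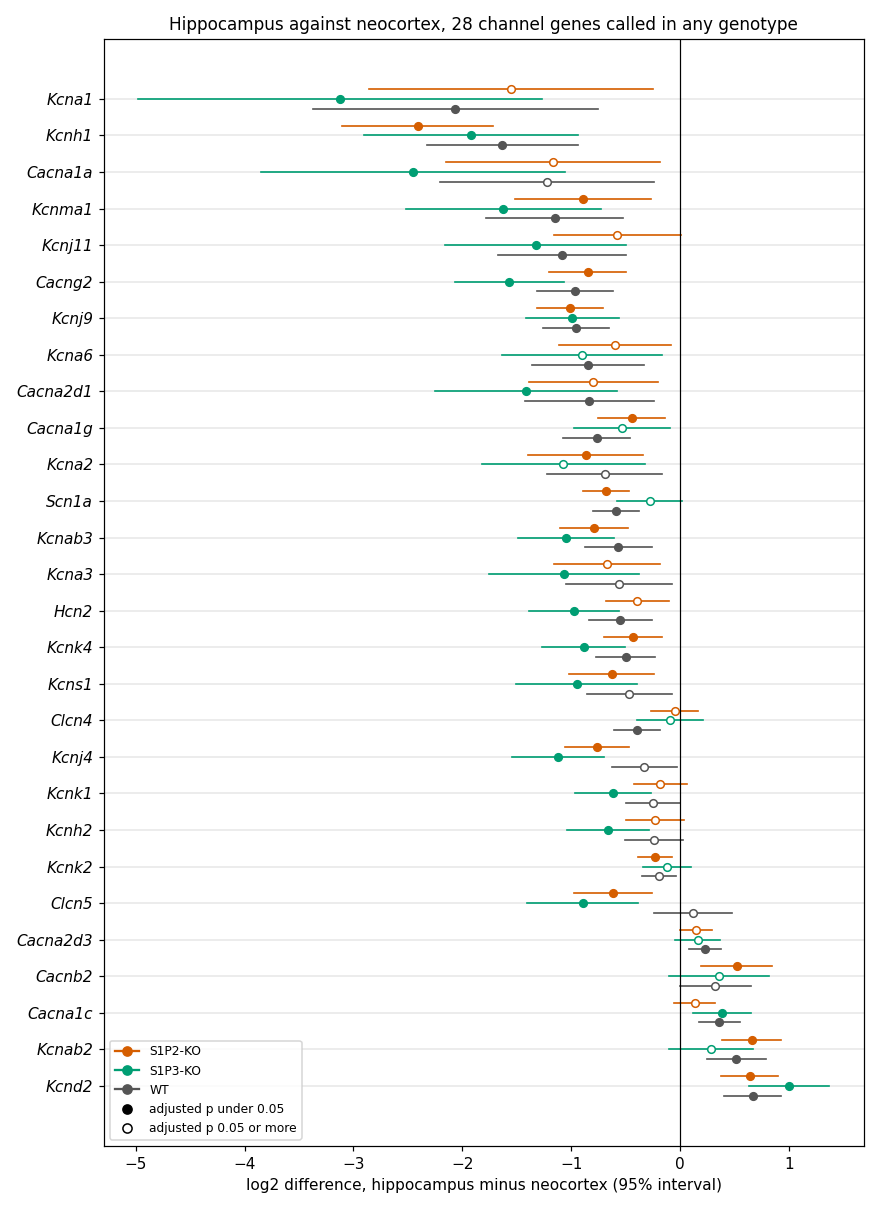
Log2 difference of hippocampus minus neocortex (x axis, log2 scale) for the 28 channel genes called in any genotype, with points for the estimates and lines for the 95% intervals. Filled points passed the adjusted test. Most points lie left of 0, and Kcnd2, Kcnab2, Cacna1c, Cacnb2 and Cacna2d3 lie to the right in each genotype.

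In all, 7 members were called in every genotype: Cacng2, Kcnab3, Kcnh1, Kcnj9, Kcnk4 and Kcnma1 lower and Kcnd2 higher (14.29% of members, against 7.066% of all probe sets). The place of Kcnma1 among them rests on its call in S1P2-KO mice, which was lost in most alternative settings.

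Among the pore subunits of voltage-gated potassium channels, Kcnh1, the ether-à-go-go channel, showed the largest called difference in S1P2-KO mice. Its signal in S1P2-KO mice ran from 42.9 through a median of 61.55 to 310.6 in hippocampus, and from 327.8 through 670.8 to 939.0 in neocortex. The 2 ranges did not overlap. In S1P3-KO mice Kcnh1 measured 32.4, 222.6, 55.6, 42.1 and 35.4 in hippocampus, with a median of 355.5 in neocortex. WT values reached from 20.9 to 325.4 in hippocampus and from 125.5 to 737.2 in neocortex, so the WT ranges overlapped. The differences of Kcnh1 were -2.41 (-3.10 to -1.71, adjusted p = 3.64e-07) in S1P2-KO, -1.92 (-2.91 to -0.93, adjusted p = 0.00531) in S1P3-KO and -1.63 (-2.33 to -0.94, adjusted p = 0.000402) in WT mice. Many hippocampus signals of Kcnh1 lay near the pseudocount, which makes these differences smaller than the ratio of signals. The hippocampus medians of Kcnh1 in S1P2-KO (61.55) and S1P3-KO (42.1) mice lay below the filter signal of 132.6. Kcnh1 passed that filter on a mean over both tissues, which includes its higher neocortex signals.

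Kcnd2, the Kv4.2 subunit of the A-type current in dendrites, went the other way. Its median signal was 803.7 in hippocampus (509.2 to 942.1) and 512.8 in neocortex (314.6 to 622.4) of S1P2-KO mice. In S1P3-KO mice every hippocampus value, 855.1 and above, exceeded every neocortex value, 651.2 and below. WT hippocampus ran from 672.1 to 1269.2 around a median of 904.8, and WT neocortex from 438.2 to 943.8 around 582.2. Kcnd2 was thus higher in hippocampus by 0.64 (0.38 to 0.90), 1.0 (0.63 to 1.37) and 0.66 (0.41 to 0.92) in S1P2-KO, S1P3-KO and WT mice, with adjusted p of 0.000218, 8.4e-05 and 0.000121. A second probe set of Kcnd2 gave 0.22, 0.59 and 0.58, called in WT mice only.

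The Kcna genes encode the delayed and low-threshold channels of axons. Kcna1 had the largest difference of any member in S1P3-KO and WT mice, -3.12 (-4.97 to -1.27, adjusted p = 0.0183) and -2.06 (-3.37 to -0.76, adjusted p = 0.023), with -1.55 and an adjusted p of 0.109 in S1P2-KO mice. Its values within hippocampus were spread too widely for one level to describe a group, as set out further on. Kcna2 was called in S1P2-KO mice (-0.87, adjusted p = 0.017), Kcna3 in S1P3-KO mice (-1.07, adjusted p = 0.0327) and Kcna6 in WT mice (-0.85, adjusted p = 0.0181), and each was negative in the other genotypes too. Kcns1, a silent subunit that modifies other channels, was called lower in S1P2-KO (-0.63) and S1P3-KO (-0.95) mice. Kcnh2, the ERG channel, was called lower in S1P3-KO mice (-0.66, adjusted p = 0.013). Of the 13 pore subunits tested, 11 had negative differences in WT mice.

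The auxiliary subunits split. Kcnab2, a beta subunit, had a median of 8747 in hippocampus and 5710 in neocortex of S1P2-KO mice, and 8156 and 5895 in WT mice. Hippocampus and neocortex ranges did not overlap in either of these genotypes. The differences were 0.66 (0.39 to 0.93, adjusted p = 0.000253) and 0.52 (0.25 to 0.79, adjusted p = 0.00468). In S1P3-KO mice Kcnab2 stood at 0.28 and was not called, and hippocampus replicate 5 measured 2456.8 against a group median of 10078. A second Kcnab2 probe set was called higher in all 3 genotypes (0.70, 0.65 and 0.46). Kcnab3 was called lower in each genotype, by -0.79, -1.05 and -0.57, with medians of 597.3, 620.4 and 709.5 in S1P2-KO, S1P3-KO and WT hippocampus against 994.8, 1024 and 1027 in neocortex.

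Inward rectifiers hold the resting potential, and Kcnj9 is a subunit of the channels that G protein-coupled receptors open. Kcnj9 had medians of 956.0 in S1P2-KO, 885.2 in S1P3-KO and 891.1 in WT hippocampus. Neocortex medians were 1721, 1508 and 1748. In S1P2-KO mice the highest hippocampus value, 1038.8, lay below the lowest neocortex value, 1411.7. The differences of Kcnj9 were close to each other at -1.01 (-1.32 to -0.71), -0.99 (-1.42 to -0.56) and -0.95 (-1.26 to -0.65), with adjusted p of 7.63e-07, 0.000823 and 2.8e-06. The probe sets of Kcnj9 disagreed: the second one gave 0.18, 0.06 and 0.39 and was not called, and averaging both left -0.42, -0.47 and -0.28, the last not called (adjusted p = 0.0674). Kcnj4, a strong rectifier of forebrain neurons, was called lower in S1P2-KO (-0.76) and S1P3-KO (-1.12) hippocampus and stood at -0.33 (adjusted p = 0.136) in WT. Kcnj11, the pore of the ATP-sensitive potassium channel, was called lower in S1P3-KO (-1.33) and WT (-1.09) mice.

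All 4 two-pore potassium genes tested, which carry background leak current, had negative differences in every genotype. Kcnk4, the mechanically gated TRAAK channel, was called in each, at -0.43 (adjusted p = 0.0204), -0.89 (adjusted p = 0.000819) and -0.50 (adjusted p = 0.00637). Its hippocampus medians were 718.2, 458.6 and 641.1 in S1P2-KO, S1P3-KO and WT mice, against 1011, 848.7 and 951.8 in neocortex. Kcnk1 was called in S1P3-KO mice (-0.61) and Kcnk2 in S1P2-KO mice (-0.23). Kcnma1, the large-conductance channel opened by calcium and voltage together, was called lower in all 3 genotypes, at -0.89, -1.62 and -1.15. Its median was 2487 in S1P2-KO, 790.0 in S1P3-KO and 2314 in WT hippocampus, and 3950, 3036 and 4421 in neocortex. In S1P2-KO mice the call on Kcnma1 was lost in 19 of 34 alternative settings (adjusted p up to 0.232). One of these was the fit without the 3 arrays of integrity ratio above 1 (-0.70, adjusted p = 0.0686).

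Hcn2 was called lower in S1P3-KO hippocampus by -0.97 (-1.38 to -0.56, adjusted p = 0.000599) and in WT hippocampus by -0.55 (-0.84 to -0.26, adjusted p = 0.00487), with -0.39 and an adjusted p of 0.0571 in S1P2-KO mice. The 5 S1P3-KO hippocampus values of Hcn2 were 1857.6, 3615.5, 2606.7, 2482.5 and 1354.7, and the neocortex values were 4501.5, 5202.4, 4393.0, 4098.7 and 4266.2. The second probe set of Hcn2 showed no such difference in S1P3-KO mice (-0.01).

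Calcium channel genes fell on both sides. Cacng2, or stargazin, which brings AMPA receptors to the synapse and whose loss gives absence seizures in mice, had medians of 1400 in S1P2-KO, 885.8 in S1P3-KO and 1077 in WT hippocampus. Neocortex medians were 2451, 2094 and 2197. The differences of Cacng2 were -0.85 (-1.20 to -0.50, adjusted p = 0.000281), -1.57 (-2.07 to -1.07, adjusted p = 5.98e-06) and -0.97 (-1.32 to -0.61, adjusted p = 3.77e-05). Cacna1g, a T-type pore subunit, was called lower in S1P2-KO (-0.45) and WT (-0.77) mice, and Cacna2d1 in S1P3-KO (-1.41) and WT (-0.83) mice. Cacna1a, the P/Q-type pore subunit of transmitter release, was called lower in S1P3-KO mice only (-2.45, adjusted p = 0.013), with -1.16 and -1.22 in S1P2-KO and WT mice. Higher in hippocampus were Cacna1c, an L-type pore subunit, in S1P3-KO (0.38) and WT (0.36) mice, Cacna2d3 in WT mice (0.23) and Cacnb2 in S1P2-KO mice (0.52). Whether the differences of these genes vary between genotypes is given with the knockout comparisons.

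Scn1a, the sodium channel of fast-spiking inhibitory neurons, was lower in hippocampus in S1P2-KO mice by -0.68 (-0.89 to -0.47, adjusted p = 1.75e-06) and in WT mice by -0.59 (-0.80 to -0.38, adjusted p = 2.67e-05). In S1P2-KO mice the hippocampus values, 1298.1 to 2427.5, all lay below the neocortex values, 2481.5 to 3558.4. WT hippocampus values ran from 1961.1 to 2650.0 and WT neocortex values from 2587.4 to 4077.3. In S1P3-KO mice the main probe set of Scn1a gave -0.28 (adjusted p = 0.234), while a second probe set was called in all 3 genotypes (-0.73, -0.58 and -0.73). Of the chloride genes, Clcn4 was called lower in WT mice (-0.39, adjusted p = 0.00637) and Clcn5, an endosomal exchanger, in S1P2-KO (-0.61) and S1P3-KO (-0.89) mice. Clcn5 stood at 0.12 in WT mice. The second probe sets did not share these differences: that of Clcn4 gave 0.19 in WT mice, and that of Clcn5 gave -0.09 in S1P2-KO and -0.07 in S1P3-KO mice, none of them called.

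**Figure D2:**
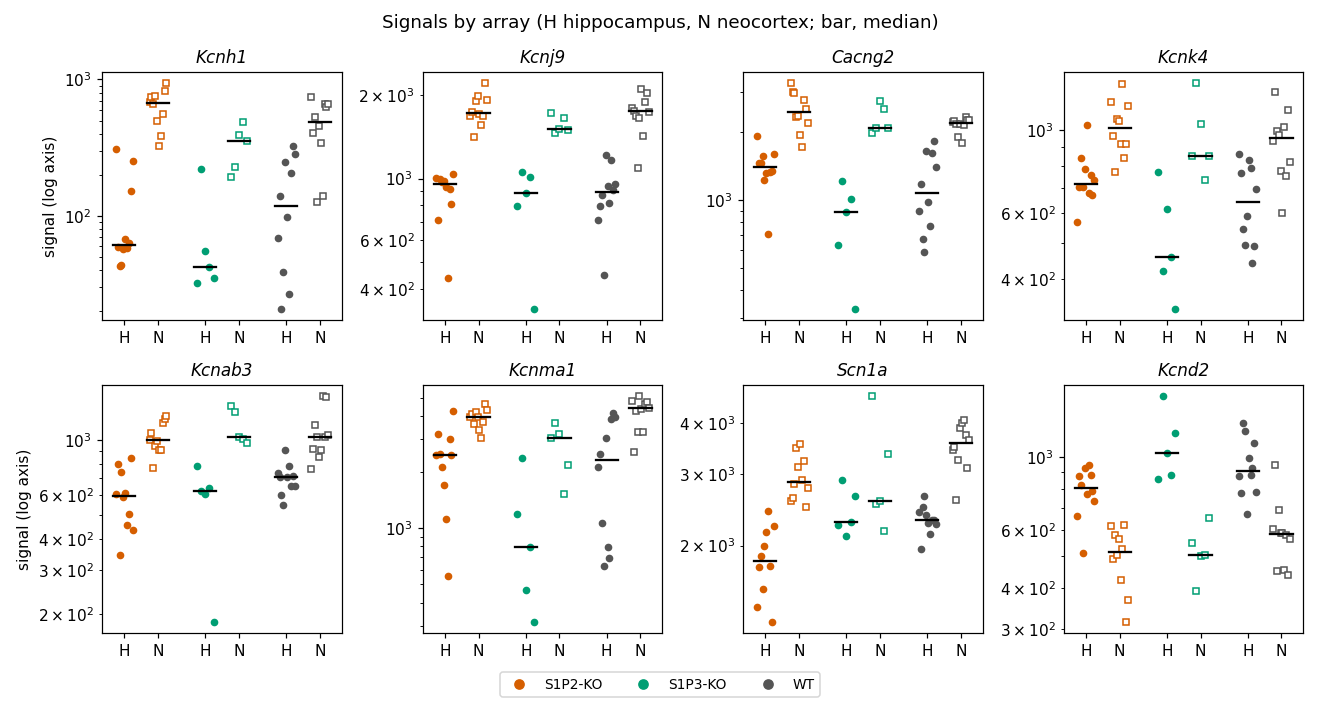
Signal on every array (y axis, log scale) for 8 channel genes, with hippocampus (H, filled) left of neocortex (N, open) in each genotype and a bar at each group median. Hippocampus medians lie below neocortex medians for Kcnh1, Kcnj9, Cacng2, Kcnk4, Kcnab3, Kcnma1 and Scn1a and above them for Kcnd2.

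The 21 tested members not called between tissues in any genotype were Cacna1b, Cacna1e, Cacna1h, Clcn1, Clcn2, Clcn3, Clcn7, Hcn3, Kcna4, Kcnab1, Kcnc1, Kcnd3, Kcnj3, Kcnj6, Kcnj8, Kcnk7, Kcnn1, Kcnn4, Kcnq1, Kcns2 and Scn8a. Of these, Clcn3 had 2 other probe sets that were called lower in S1P3-KO hippocampus (-0.50, adjusted p = 0.0291, and -0.65, adjusted p = 0.0307). A further Clcn3 probe set gave 0.09 there and was not called (adjusted p = 0.676). The 19 members under the filter were Cacna1s, Cacng1, Kcna5, Kcna7, Kcnd1, Kcne1, Kcne1l, Kcnj1, Kcnj12, Kcnj15, Kcnj2, Kcnj5, Kcnk3, Kcnmb1, Kcnu1, Scn3a, Scn7a, Scn9a and Scn10a, with mean signals from 21.8 (Kcnj2) to 151.1 (Kcnd1).

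Tissue markers sorted the arrays by their labels. The summed signal of 7 hippocampus markers (Prox1, Dsp, Neurod6, Wfs1, Zbtb20, Lct and Tdo2) was 10241 or more on every hippocampus array and 5221 or less on every neocortex array. Neuron markers (Snap25, Syt1, Nefl, Nefm, Stmn2, Thy1 and Eno2) summed to medians of 90588, 95243 and 94341 in S1P2-KO, S1P3-KO and WT hippocampus. The neocortex sums were 106923, 103950 and 109390. Snap25 was the brightest marker in the sum, with medians of 39748 in WT hippocampus and 54331 in WT neocortex. Syt1, Nefm and Stmn2 were lower in WT hippocampus as well. Nefl (2991 against 2961), Thy1 (18147 against 17100) and Eno2 (14622 against 13875) were higher there, so the list did not move as 1. Oligodendrocyte markers summed to 40960, 40417 and 39295 in hippocampus, against 33634, 36227 and 33659 in neocortex. Choroid plexus markers summed to between 3012 and 46336 on hippocampus arrays and between 4471 and 12058 on neocortex arrays. The part of these cell types in the channel differences was not tested, and in whole tissue fewer cells of a type and less RNA per cell cannot be told apart.

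Of 12 members known from seizure-prone mouse mutants, 1 was called higher (Kcnd2) and 4 lower in S1P2-KO hippocampus. The counts were 1 and 5 in S1P3-KO, and 1 and 5 in WT hippocampus. Median differences were -0.54, -0.70 and -0.57 in S1P2-KO, S1P3-KO and WT mice. Over all 49 tested members, 16, 19 and 18 were called in these genotypes, in the same order. Of all probe sets tested, 7.62%, 5.99% and 7.83% were called higher and 7.09%, 6% and 6.74% lower. Of 12 tested channel partners, 3 were called higher and 2 lower in S1P2-KO mice, 1 and 3 in S1P3-KO mice, and 3 and 1 in WT mice, with medians of -0.06, 0.07 and -0.05, and Dlg1, a scaffold of potassium channels, was called lower in each genotype (-0.81, -0.85 and -0.73). Of 11 tested ion pumps and cation-chloride cotransporters, 3 were called higher and 4 lower in S1P2-KO mice, 1 and 3 in S1P3-KO mice, and 3 and 3 in WT mice, with medians of -0.02, 0.07 and -0.20. Slc12a5, the neuronal chloride extruder, was called lower in all 3 genotypes (-0.89, -1.20 and -0.84), as was Atp2b2, a calcium pump (-1.52, -2.0 and -1.49).

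Arrays of the same hippocampus group differed widely in several channel genes. The SD between arrays of a group was 2.05 in hippocampus and 0.67 in neocortex for Kcna1 on the log2 scale, and 1.58 and 0.42 for Cacna1a. Over the tested members the median SD was 0.43 in hippocampus and 0.30 in neocortex, against 0.31 and 0.27 over all probe sets tested. The SD was larger in hippocampus for 38 of 49 members, 77.55%, and for 65.24% of all probe sets. Kcna1 had the SD at percentile 99.98 of all probe sets in hippocampus. In WT hippocampus, Kcna1 measured 43.4, 46.5, 56.2 and 52.7 on replicates 3, 4, 6 and 7 and from 1072.0 to 3545.5 on the other 6. In S1P3-KO hippocampus the 5 values of Kcna1 were 42.0, 1080.3, 293.1, 52.0 and 53.5. In S1P2-KO hippocampus, replicates 6 and 7 measured 167.9 and 34.7 and the other 8 ran from 741.2 to 2116.7.

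The same arrays were low for other members. Replicates 3, 4, 6 and 7 were the 4 lowest WT hippocampus arrays for Cacna1a (119.8, 29.0, 357.2 and 300.0, against 791.9 to 1880.8 on the others). They were also the 4 lowest for Kcnma1 (1065.0, 626.1, 792.0 and 693.3, against 2137.3 to 4147.5). The integrity ratios of these 4 arrays were 0.75, 1.20, 0.26 and 0.32. The ratios of the other 6 arrays were 0.34 to 0.49, and the part of RNA integrity in the low values was not tested. GABAergic neuron markers (Gad1, Gad2, Slc32a1, Pvalb, Sst, Npy and Vip) were high on several of the low arrays. Their summed signal was 40151 and 41360 on S1P2-KO hippocampus replicates 6 and 7, against 29856 to 37384 on the other 8. It was 40379 on S1P3-KO replicate 5, against 32489 to 35222 on the other 4. S1P3-KO replicates 1 and 4, also low for Kcna1, had sums of 35222 and 33438, against 32489 and 33989 on replicates 2 and 3. The sum was 36545, 37263, 38960 and 37368 on WT replicates 3, 4, 6 and 7, against 30631 to 35155 on the other 6. Of 11 marker lists, this was the 1 list apart in the same direction in all 3 groups, with only replicate 5 taken in S1P3-KO hippocampus. Its part in the channel values was not tested, and these arrays were picked by their channel or integrity values, so this is a description.

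In neocortex, Kcna1 stayed at 838.3 or above on every array, but the arrays ran in a like order. S1P2-KO neocortex replicates 7, 6 and 3 were the lowest of their group for Kcna1, Cacna1a and Kcnma1. S1P3-KO neocortex replicates 4 and 5 were the lowest of theirs for the same genes, and in WT neocortex the 4 lowest were replicates 2, 3, 4 and 7 for each. Several low replicate numbers were thus common to both tissues, and the labels do not say whether a number marks 1 mouse. With the integrity ratio in the model as a covariate, the Kcna1 difference was -1.98 in WT mice (adjusted p = 0.0213) and -2.45 in S1P3-KO mice (adjusted p = 0.119).

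**Figure D3:**
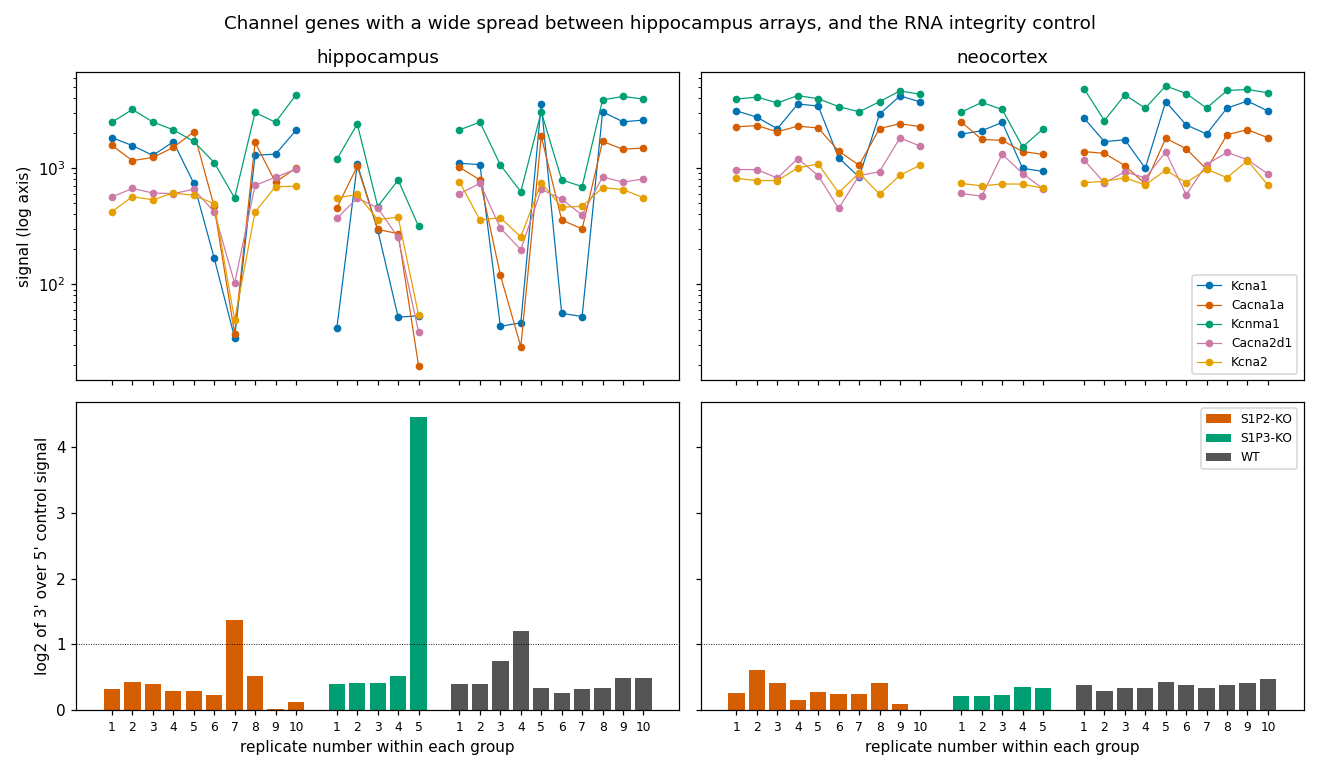
Upper row, signal (log axis) of channel genes Kcna1, Cacna1a, Kcnma1, Cacna2d1 and Kcna2 on every array, with hippocampus on the left and neocortex on the right. Lower row, log2 ratio of 3′ over 5′ control signal on the same arrays, with a dotted line at 1. Kcna1, Cacna1a and Kcnma1 are lowest together on WT hippocampus replicates 3, 4, 6 and 7 and on S1P2-KO replicates 6 and 7, and S1P3-KO replicate 5 has the highest ratio, 4.46.

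No channel gene passed the adjusted test between a knockout and WT. Of 49 members, 0 were called in S1P2-KO neocortex, S1P2-KO hippocampus, S1P3-KO neocortex or S1P3-KO hippocampus against WT, where 0%, 0%, 0% and 0.0352% of all probe sets were called. Of the 0.0352%, 0.0117% were lower and 0.0234% higher. At an unadjusted p under 0.05 there were 5 members in S1P2-KO neocortex, 4 higher and 1 lower (8.74% of all probe sets, 4.49% higher and 4.25% lower). In S1P2-KO hippocampus there were 4, 2 higher and 2 lower (5.54%, 2.4% higher and 3.14% lower). In S1P3-KO neocortex there were 9, 5 higher and 4 lower (10.5%, 5.33% higher and 5.16% lower). In S1P3-KO hippocampus there were 6, all lower (9.54%, 4.58% higher and 4.96% lower). The S1P2-KO and S1P3-KO comparisons share their WT arrays.

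The sodium channel Scn1a had the smallest unadjusted p among members in S1P2-KO hippocampus. It ran from 1298.1 through a median of 1833 to 2427.5 in S1P2-KO hippocampus, against 1961.1 through 2312 to 2650.0 in WT hippocampus, and the ranges overlapped. The difference of Scn1a was -0.34 (-0.54 to -0.14, p = 0.00198, adjusted p = 0.767). In S1P2-KO neocortex Scn1a had a median of 2866, against 3564 in WT neocortex, a difference of -0.25 (adjusted p = 0.475). The second probe set of Scn1a gave -0.12 in both tissues, with unadjusted p of 0.278 in hippocampus and 0.233 in neocortex. Among the 5 members in S1P2-KO neocortex, Cacna1a had the largest difference, 0.50 (0.15 to 0.86, adjusted p = 0.341), with a median of 2242 against 1430 in WT neocortex. Kcnj4 (0.24), Cacng2 (0.20) and Kcnk1 (0.22) were the others beside Scn1a.

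Clcn5 in hippocampus had the lowest adjusted p among members in S1P3-KO hippocampus. Its 5 values there were 78.4, 167.5, 388.3, 106.3 and 267.5, and its 10 WT values ran from 285.7 through 332.9 to 509.7. Of the 5 S1P3-KO values 4 lay below every WT value, and replicate 3 lay within the WT range. The difference of Clcn5 was -0.94 (-1.44 to -0.43, adjusted p = 0.171). Without S1P3-KO replicate 3 it was -1.17 and passed (adjusted p = 0.0439), the 1 of 27 alternative settings in which it did. Without replicate 5 it was -1.05 and did not pass (adjusted p = 0.207). S1P2-KO hippocampus values of Clcn5 ran from 117.2 through 242.4 to 316.3, a difference of -0.62 from WT (-1.03 to -0.21, adjusted p = 0.809). A second Clcn5 probe set gave 0.06 in S1P2-KO and -0.19 in S1P3-KO hippocampus, and neither passed at an unadjusted p under 0.05.

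In S1P3-KO hippocampus 35 of 49 members (71.4%) had negative differences, against 52.1% of all probe sets, with a median of -0.15 and -0.01. The 6 with an unadjusted p under 0.05 were all negative: Clcn5, Hcn2 (-0.65), Kcnd3 (-1.07), Kcnma1 (-1.10), Cacna2d1 (-0.93) and Kcnj3 (-0.41). The second Hcn2 probe set went the other way, at 0.33 (unadjusted p = 0.0272). Replicate 5, which had the integrity ratio of 4.46, was the lowest of the group for Hcn2, Kcnma1, Cacna2d1 and Kcnj3. Without it these differences were -0.47, -0.82, -0.43 and -0.21, and those of Clcn5 and Kcnd3 were -1.05 and -1.09. The adjusted p of these 6 then ran from 0.207 to 0.829. The share of members with negative differences was not recomputed without replicate 5. In S1P3-KO neocortex, Kcnma1 had the largest difference, with values of 3036.1, 3682.9, 3200.7, 1522.8 and 2183.9 against 2569.9 through 4421 to 5112.6 in WT neocortex. That difference of Kcnma1 was -0.63 (-0.96 to -0.31, adjusted p = 0.132). The other 8 were Kcnj4 (0.32), Kcnk1 (0.35), Scn8a (0.29), Cacna1c (0.23), Kcnab2 (0.18), Cacna1b (-0.25), Hcn2 (-0.23) and Clcn3 (-0.15). The second probe sets of Kcnab2 and Hcn2 gave -0.00082 and -0.00063, and 3 other probe sets of Clcn3 gave -0.08, -0.04 and 0.15.

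**Figure D4:**
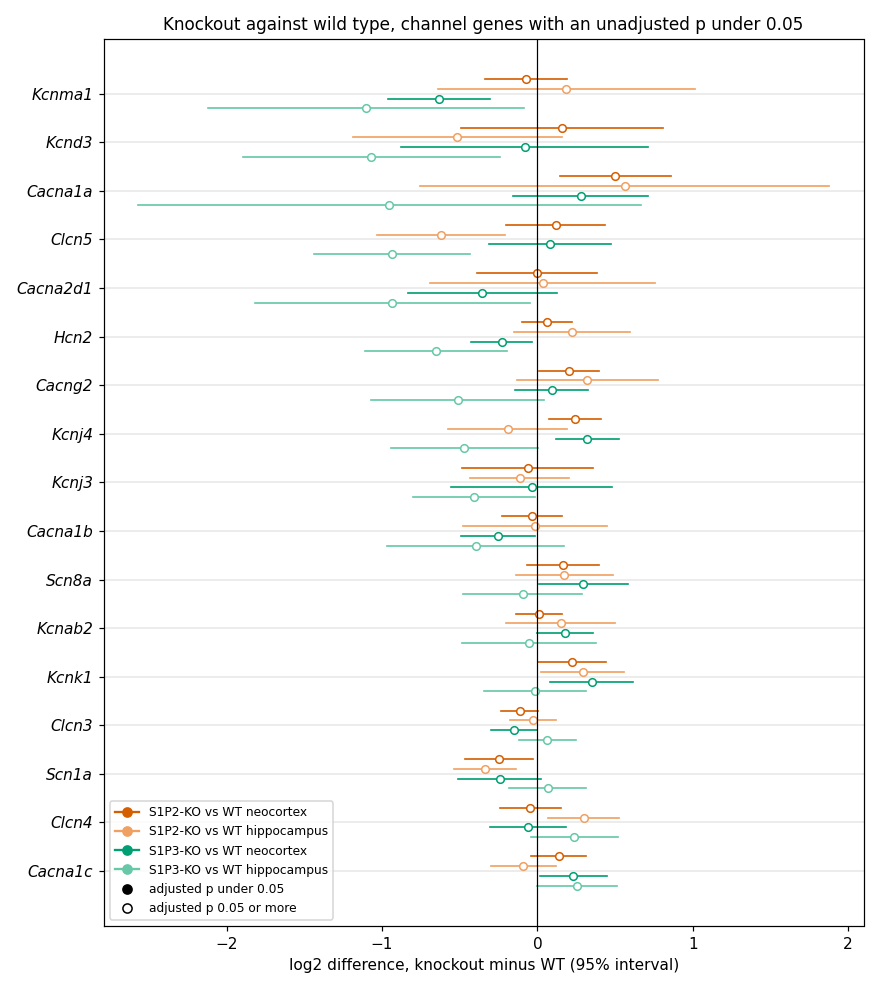
Log2 difference of knockout minus WT (x axis) for channel genes with an unadjusted p under 0.05 in any of the 4 comparisons, with 95% intervals. All points are open because no member passed the adjusted test, and Clcn5, Hcn2, Kcnd3, Kcnma1, Cacna2d1 and Kcnj3 lie left of 0 in S1P3-KO hippocampus.

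Between the knockouts, 0 of 49 members were called in hippocampus or neocortex (0% of all probe sets in each). At an unadjusted p under 0.05 there were 10 members in hippocampus, 7 higher and 3 lower in S1P2-KO (11.5% of all probe sets, 5.77% higher and 5.74% lower). In neocortex there were 3, all higher (5.93%, 3.11% higher and 2.82% lower). Hcn2 differed between S1P2-KO and S1P3-KO hippocampus by 0.87 (0.42 to 1.33, adjusted p = 0.161), with medians of 4424 and 2482, while its second probe set gave -0.26 (unadjusted p = 0.0797). Scn1a gave -0.40 (adjusted p = 0.234), and its second probe set -0.10. Whether a knockout difference varied between tissues was tested as an interaction, and 0 members were called for S1P2-KO or S1P3-KO (0% of all probe sets in each). At an unadjusted p under 0.05 this interaction held 3 members for S1P2-KO, 1 higher and 2 lower (2.6% of all probe sets, 1.38% higher and 1.22% lower), and 2 for S1P3-KO, both lower (5.13%, 2.39% higher and 2.74% lower). Clcn5 was in both, at -0.74 and -1.02 (adjusted p = 0.875 for S1P3-KO), while its second probe set gave 0.03 and 0.06. Kcnj4 was in both as well, at -0.43 and -0.79.

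Between the sexes, 0 members were called in hippocampus or neocortex (0.0586% of all probe sets in each, 0.0352% higher and 0.0234% lower in female hippocampus, and 0.0234% higher and 0.0352% lower in female neocortex). At an unadjusted p under 0.05, female minus male differences were 0.19 for Kcnk2 and 0.26 for Kcnk1 in hippocampus (5.13% of all probe sets, 2.28% higher and 2.85% lower). In neocortex there was 1, Kcnh2, at 0.23 (6.15%, 2.84% higher and 3.32% lower).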

How the data were processed

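The authors deposited 1 linear intensity for each of 12488 probe sets on each of 50 arrays, which are MAS5 signals per the submitters' processing notes. Per the labels' protocols, biotin-labelled cRNA was made from 12 µg of total RNA. Members and gene lists were chosen with earlier results of these data known. Levels were taken as log2(signal + 30.7), 30.7 being the 10th percentile of all signals. After removal of 66 control probe sets, those with a mean log2 level above that of the 30th percentile (132.6) were tested, 8534 in all. Models were fitted in R 4.3.3 by limma 3.58.1 (eBayes with trend): within each tissue over 3 genotypes with sex, and over all arrays for tissue differences and interactions, with sex within tissue. P-values were adjusted by Benjamini-Hochberg, threshold 0.05. The model code was tested on simulated data. Precision is limited by the number of arrays.

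Several choices were made after results had been seen. The filter was first run on the mean linear signal. In the model of all arrays, sex was first coded so that the tissue contrasts described males only. It was recoded so that they average the sexes, which raised the counts of called members. Both first versions are kept as alternatives. Between tissues the naming rule took, per channel class, the 4 largest called differences and every called one of size 1 or more. Elsewhere it took every called member and the 3 smallest p-values per class (331 values in all). Kcns1 and Kcnh2 in S1P3-KO mice fall outside it and were added after their values were seen. Values are given for the 96 with an unadjusted p under 0.05, a limit added after sign changes among the others were seen. Under the full rule 255 of 10860 recomputed values changed sign, 3 of them among the 96. Replicate numbers were not used to pair tissues, as the labels do not say that they mark the same mouse and not every same-numbered pair correlated above 0.1.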

Additional observations from a re-analysis of the deposited data

Results flagged for a closer look

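Dixon's criterion marks 1 array that stands apart from the rest of its group, and chance alone would mark about 1 in 20 groups. It was applied to the log2 level of each of the 49 tested members in 6 groups, 294 tests, and marked 33 (11.2%), 27 of them low. By group, 15 fell in S1P3-KO hippocampus, 12 of these on replicate 5. The integrity ratio of that array was 4.46. Values are signals, with the group median after each.

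On S1P2-KO hippocampus replicate 7, Cacna1a at 37.4 (median 1198), Cacna2d1 at 102.1 (median 634), Cacng2 at 709.3 (median 1400), Hcn2 at 2197.2 (median 4424), Kcna2 at 49.2 (median 550.5), Kcnj4 at 459.5 (median 1028) and Kcnj9 at 438.7 (median 956) stood low. On S1P3-KO hippocampus replicate 1, Kcnk1 at 1495.7 (median 2676) stood low. On S1P3-KO hippocampus replicate 1, Kcnj6 at 422.3 (median 262.1) stood high. On S1P3-KO hippocampus replicate 2, Kcnh1 at 222.6 (median 42.1) stood high. On S1P3-KO hippocampus replicate 5, Cacna1b at 332.6 (median 861.9), Clcn7 at 449.3 (median 2129), Kcna2 at 54.2 (median 378.1), Kcna6 at 34.0 (median 276.1), Kcnab2 at 2456.8 (median 10078), Kcnab3 at 185.5 (median 620.4), Kcnh2 at 382.2 (median 948.2), Kcnj4 at 351.5 (median 979.6), Kcnj9 at 339.9 (median 885.2) and Kcnn1 at 424.4 (median 867.8) stood low. On S1P3-KO hippocampus replicate 5, Cacna1g at 772.7 (median 536.9) and Clcn3 at 10400.6 (median 7504) stood high. On WT hippocampus replicate 2, Kcna3 at 40.1 (median 305.5) and Kcnn1 at 339.1 (median 808.1) stood low. On WT hippocampus replicate 3, Cacna1g at 131.6 (median 515.5) stood low. On WT hippocampus replicate 4, Kcns1 at 106.1 (median 347.1) stood low. On WT hippocampus replicate 8, Kcnj6 at 106.7 (median 285.1) stood low. On S1P2-KO neocortex replicate 6, Kcnc1 at 44.3 (median 247.3) stood low. On S1P2-KO neocortex replicate 9, Kcnj3 at 87.0 (median 190.1) stood low. On WT neocortex replicate 2, Cacna2d3 at 3345.6 (median 2802) stood high. On WT neocortex replicate 3, Clcn2 at 98.4 (median 333.4) stood low. On WT neocortex replicate 4, Clcn5 at 139.2 (median 348) stood low. On WT neocortex replicate 7, Kcnk2 at 3650.2 (median 2804) stood high. 

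The part of RNA integrity in these values was not tested. On S1P2-KO hippocampus replicate 7, which had a ratio of 1.37, 7 members stood apart.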

How the results depend on the processing

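Across the comparisons, 417 of 424 recomputed counts of called members stayed within 1.5 times the reported one. Most of these came from knockout, sex and interaction comparisons, whose reported count of 0 met that limit by staying at 0. The tissue comparisons held 34 recomputed counts in S1P2-KO, 24 in S1P3-KO and 34 in WT mice, and most of the counts that moved were among them. The count for hippocampus against neocortex in S1P3-KO mice, 19, was 11 with the integrity ratio in the model, 7 with only that genotype in the fit and 11 for the difference in males. It was 9 for females in S1P2-KO mice (16 reported) and 11 for males in WT mice (18 reported). The codings by sex were chosen after seeing the data, the male one being the first run. They kept all arrays and moved only the sex at which the contrast was read, with a sex term shared by the genotypes. Leaving out 1 array gave 13 to 18 in S1P2-KO, 11 to 19 in S1P3-KO (the low end without hippocampus replicate 5) and 16 to 20 in WT mice. The same step gave 0 to 1 for S1P3-KO against WT hippocampus, the 1 being Clcn5 without S1P3-KO replicate 3. With genotype and replicate number together as a random block, the tissue counts were 20 in S1P2-KO, 20 in S1P3-KO and 21 in WT mice. The interactions were 0. A different block, terms for the replicate number shared by the genotypes within a tissue, left the knockout counts at 0. The correlation of same-numbered hippocampus and neocortex arrays ran from 0.066 to 0.26 in S1P2-KO mice (9 of 10 above 0.1), from -0.0684 to 0.168 in S1P3-KO mice (2 of 5) and from -0.00252 to 0.19 in WT mice (6 of 10), with medians of 0.152, 0.0297 and 0.104 against -0.0212, -0.0112 and -0.0315 for other numbers. The own number correlated best for 3, 1 and 3 arrays. Under the replicate-number terms within neocortex, 3 differences in S1P3-KO neocortex reversed, Cacna1b to 0.163, Clcn3 to 0.0547 and Scn8a to -0.0144. The cause was not tested. Same-numbered S1P3-KO and WT neocortex arrays correlated from -0.178 to 0.0455, with a median of -0.0201 against 0.00467 for other numbers. Under the full naming rule, 255 of 10860 recomputed values changed sign, none of them called. Some tissue calls were lost in many settings. These were Kcnma1 (19 of 34), Cacna1g (15 of 34) and Kcnk2 (10 of 34) in S1P2-KO mice. In S1P3-KO mice they were Cacna1c (15 of 24), Kcna3 (11 of 24) and Kcnj11 (10 of 24), and in WT mice Cacna2d1 (17 of 34). Calls on Cacng2, Kcnd2 and Kcnh1 held in every setting in all 3 genotypes. Signal near the background limits the dim members, such as Kcnh1 in hippocampus.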
